A study of Mus musculus with 12 samples.

Results

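Elastic fibres are described here through 10 genes that encode their core and their microfibrils, which are Eln, Fbn1, Fbn2, Fbln1, Fbln2, Fbln5, Mfap2, Mfap4, Mfap5 and Emilin1. The genes were taken by symbol from the gene list that all 12 libraries share, so they are 10 of 27998 genes, and each symbol matched exactly 1 gene identifier. Single cells of the mouse mammary gland were profiled in a model of menopause, and the genes were read in 4 sets of fibroblasts and in every library, because fibroblasts make most of the gland's matrix and were the cells the study asked about. All 10 genes passed the filter on low counts in every comparison below.

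Each library came from the 4th mammary glands of female C57BL/6J mice that were 43 weeks old, and each treatment had exactly 1 library. In 11 of the 12 libraries the mice had received 4-vinylcyclohexene diepoxide (VCD), a compound that depletes ovarian follicles, at 160 mg per kg per day by injection for 15 days from 9 weeks of age, and the library called Intact came from mice without VCD. A full layout of 9 VCD libraries crossed 3 hormone treatments with 3 levels of polybrominated diphenyl ethers (PBDE, flame retardants that persist in tissue). The hormone treatments were sesame oil vehicle, 17-beta-estradiol (E2) at 1 µg per animal per day, or E2 with progesterone (P4) at 1 mg per animal per day, all by injection for 1 week. Low PBDE was a daily mixture of 0.05 mg per kg PBDE-47, 0.0028 mg per kg PBDE-100 and 0.0063 mg per kg PBDE-153 for 20 weeks, starting 100 days after VCD. High PBDE was the same 3 compounds at 1, 0.056 and 0.126 mg per kg per day for 1 week, so its dose and its duration changed together and cannot be told apart. Mice outside the PBDE arms ate nutrient-matched food carrying DMSO. The other 2 VCD libraries were VCD_E2_ICI, in which E2 was given with 1 injection of 5 mg of ICI (fulvestrant), an antagonist that also degrades the estrogen receptor, and VCD_Vehicle_NormEnv, a vehicle library from mice that may have met PBDE in their cages. How many mice went into a library is not given in the sources used here.

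An elastic fibre has a core of crosslinked elastin on a sheath of microfibrils. Elastin gives tissues such as skin, lung and arteries their recoil, and fibroblasts and smooth muscle cells secrete it as tropoelastin, which lysyl oxidases crosslink outside the cell. Microfibrils are polymers of fibrillins decorated with small glycoproteins, and they also hold growth factors of the TGF-beta family. In the mammary gland, elastic fibres lie in the connective tissue around ducts and vessels and in the septa of the fat pad.

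By role, Eln encodes tropoelastin and lies at chr5:134702593-134747323 on the minus strand (GRCm38, like all coordinates here). Fbn1 (chr2:125300594-125507993, minus strand) and Fbn2 encode the fibrillins that form the microfibril backbone. Mfap2 (chr4:141010418-141015984, plus strand) and Mfap5 (chr6:122505845-122529290, plus strand) encode the small microfibril glycoproteins MAGP-1 and MAGP-2. Mfap4 (chr11:61485431-61488900, plus strand) encodes a fibrinogen-domain glycoprotein that binds tropoelastin and fibrillin. Fbln1 (chr15:85205949-85286535, plus strand), Fbln2 (chr6:91212455-91272540, plus strand) and Fbln5 (chr12:101746565-101819055, minus strand) encode fibulins, and fibulin-5 is needed to lay elastin onto microfibrils. Emilin1 (chr5:30913402-30921277, plus strand) encodes a glycoprotein found at the boundary of elastin and microfibrils.

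The repeat that makes elastin elastic can be read in its gene. Exon 27 of the 37 exons in the Eln transcript (chr5:134711062-134711220, minus strand, 159 bases) holds 5 of the transcript's 20 in-frame copies of the codons for valine, proline and glycine, which are in capitals and match GTNCCNGGN. The exon is shown because it encodes repeated hydrophobic units, which lie between the protein's crosslinking domains. The Eln counts below are of transcripts tagged at the 3' end and do not measure this exon or the protein.
Eln exon 27: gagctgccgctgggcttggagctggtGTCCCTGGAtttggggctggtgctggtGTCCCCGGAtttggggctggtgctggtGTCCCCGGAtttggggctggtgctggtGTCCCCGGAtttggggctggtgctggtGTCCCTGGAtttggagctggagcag

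Promoter windows were available in RefSeq's table (GRCm38.p6) for 6 of the 10 genes, each running from 250 bases before to 50 bases after the RefSeq start. That start lay 384, 309 and 1555 bases inside the annotated gene for Emilin1, Fbln2 and Fbn1, so the Emilin1 window lies within the gene as given above. Fbln1, Fbln5 and Mfap2 have 2 windows each in the table, of which the one starting closest to the annotated start was searched and the second was not. The windows of Emilin1, Mfap2 and Fbln1 are shown because of their changes with hormone. In the libraries given E2, with or without P4, Emilin1 and Mfap2 were higher in most fibroblast sets and Fbln1 was lower in most. Capitals mark GGTCA or its complement TGACC, a core that many nuclear receptors recognise, which 40.5% of 32851 mouse windows of the same length hold. Emilin1 had 2 copies (first base at -90 and 44 from the start) and Mfap2 had 3 (at -149, -136 and 35), while the windows of Fbln1, Fbn1, Fbln2 and Fbln5 had 0.
Emilin1, chr5:30913536-30913835, plus strand: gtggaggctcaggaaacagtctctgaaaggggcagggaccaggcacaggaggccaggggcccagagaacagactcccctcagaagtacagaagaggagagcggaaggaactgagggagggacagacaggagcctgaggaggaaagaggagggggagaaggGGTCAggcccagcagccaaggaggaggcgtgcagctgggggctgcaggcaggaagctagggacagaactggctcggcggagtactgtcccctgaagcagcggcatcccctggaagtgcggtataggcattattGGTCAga
Mfap2, chr4:141010174-141010473, plus strand: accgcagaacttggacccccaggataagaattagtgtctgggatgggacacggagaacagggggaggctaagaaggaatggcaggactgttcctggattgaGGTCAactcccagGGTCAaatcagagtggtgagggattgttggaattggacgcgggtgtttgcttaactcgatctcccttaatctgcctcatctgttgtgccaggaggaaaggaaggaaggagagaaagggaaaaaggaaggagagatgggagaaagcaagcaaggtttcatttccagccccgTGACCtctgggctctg
Fbln1, chr15:85205699-85205998, plus strand: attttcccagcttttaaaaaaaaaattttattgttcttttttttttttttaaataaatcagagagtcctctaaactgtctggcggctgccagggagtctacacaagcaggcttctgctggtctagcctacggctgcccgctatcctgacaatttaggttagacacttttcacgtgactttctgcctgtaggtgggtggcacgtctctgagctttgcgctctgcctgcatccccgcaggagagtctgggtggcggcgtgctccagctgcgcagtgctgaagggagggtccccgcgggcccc
The full estrogen response element, a palindrome of GGTCA, any 3 bases and the reverse complement of GGTCA, was in 0.07% of all windows, and none of the 6 windows had it. The same 6 windows had no TGANTCA (7.81% of all windows, both strands searched) and no TATAAA (13.6%), and GGGCGG (35.7%) was in those of Fbn1, Fbln2 and Fbln5. These matches describe letters in a window and say nothing of binding in these cells.

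Of 58620 barcodes, 46257 passed the cell filters (72.7 to 84.8% per library) and 31358 were called fibroblasts from 6 markers. Fibroblasts were divided by marker scores that used none of the 10 genes into the Dpp4 Pi16 set (11656 cells), the Fabp4 Lpl set (7012), the Tnc Mdk set (4087) and the Gdf10 F3 set (4071), with 4532 cells left as mixed. The defining markers separated the sets, with Pi16 at 4081 counts per 1000000 UMIs (CPM) in its own set against 64.5 to 345.3 in the others, Fabp4 at 3042 against 21.1 to 271.1, Tnc at 198.0 against 0.44 to 2.10, and Gdf10 at 404.2 against 8.88 to 47.1. Libraries held 41737881 to 109224969 UMIs, the summed counts of 1 set in 1 library ran from 2335586 to 28002952 UMIs, and 274 of 45975 distinct passing barcodes occurred in more than 1 library. Values below are CPM of those sums, and where 3 libraries of a hormone group are listed their order is no PBDE, low PBDE and high PBDE. For the hormones and PBDE each library is the unit of testing, so those p-values measure the spread between libraries only. Where sets were compared, library was a block. Those p-values measure how far the differences between sets varied from library to library. The comparison of sets also took each difference as the same in every treatment.

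The first comparison asked where in the fibroblast population each elastic fibre gene is expressed. The quasi-likelihood test of edgeR compared each set with the average of the remaining 3, on 48 sums with library as a block, and p-values were adjusted by Benjamini-Hochberg over all 12071 genes. The genes fell into distinct patterns. Fbn1, Mfap5 and Fbln5 were highest in the Dpp4 Pi16 set in all 12 libraries, and Fbn2, Mfap4, Mfap2 and Emilin1 were highest in the Tnc Mdk set in 11 or 12 of them. The Fabp4 Lpl set was lower in 7 genes, against 31.3% of all genes tested, and higher in none. So many genes differ between the sets that the calls alone say little, since 72.5%, 60.4%, 61.0% and 50.7% of all genes tested were called in the Dpp4 Pi16, Fabp4 Lpl, Tnc Mdk and Gdf10 F3 comparisons, where 9, 7, 7 and 5 of the 10 genes were.

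Eln was highest in the Dpp4 Pi16 set, with a lowest, median and highest library of 246, 501 and 938 CPM. Its levels were 258, 363 and 528 CPM in the Gdf10 F3 set, 109, 213 and 1135 CPM in the Tnc Mdk set and 85.3, 162 and 423 CPM in the Fabp4 Lpl set. The order was loose, since the Dpp4 Pi16 set was highest in 8 of 12 libraries, and in the Tnc Mdk set the libraries spanned a wide range that the hormone groups below divide. Against the other sets, Eln was higher in the Dpp4 Pi16 set (log2 fold change 1.00 ± 0.22 SE, adjusted p = 9.08e-05) and lower in the Fabp4 Lpl set (log2 fold change -1.23 ± 0.24 SE, adjusted p = 3.19e-05). The Dpp4 Pi16 set held 63.7% of all Eln UMIs found in the 4 sets.

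**Figure D1:**
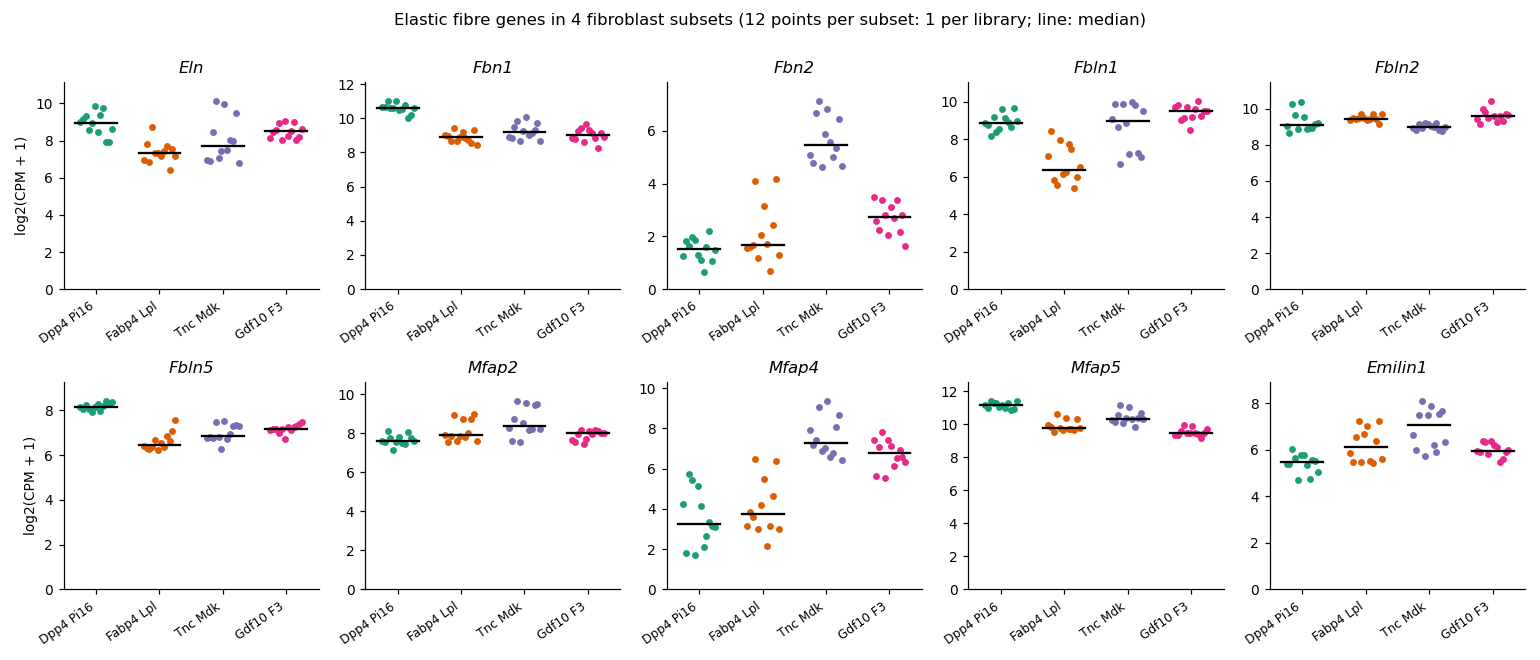
Level of each elastic fibre gene, as log2(CPM + 1) on the vertical axis, in 4 fibroblast sets on the horizontal axis, with 1 point per library (12 per set) and a line at the median. Fbn1, Mfap5 and Fbln5 sit highest in the Dpp4 Pi16 set in every library, and Fbn2 in the Tnc Mdk set in every library.

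The fibrillins occupied opposite sets. Fbn1, the main fibrillin of adult tissue, had a lowest, median and highest level of 1039.9, 1565 and 2094 CPM in the Dpp4 Pi16 set and of 404, 589.9 and 1071 CPM in the Tnc Mdk set, which came next. The Dpp4 Pi16 set was highest in all 12 libraries (log2 fold change 1.58 ± 0.08 SE, adjusted p = 1.09e-19), and the order of the remaining sets changed from library to library. Fbn2, the fibrillin best known from development, stood at 23.6, 43.4 and 141 CPM in the Tnc Mdk set and at 0.565, 1.92 and 3.64 CPM in the Dpp4 Pi16 set. The Tnc Mdk set was highest in all 12 libraries (log2 fold change 3.85 ± 0.20 SE, adjusted p = 4.67e-19), and it held 73.3% of the Fbn2 UMIs with 4087 of the cells. In cells thinned to 5000 UMIs, 16.2% of Tnc Mdk cells had an Fbn2 UMI, against 0.791 to 1.57% in the other 3 sets and 0.191% in immune cells, which should not make it. Immune cells held 0 to 0.289 CPM of Fbn2 without hormone, 0 to 0.172 CPM with E2 and 0.665 to 0.867 CPM with E2 and P4, below the 2.03 to 2.60, 1.44 to 3.64 and 1.08 to 2.91 CPM of the Dpp4 Pi16 set in the same groups.

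The microfibril glycoproteins did not move as a block either. Mfap5 followed Fbn1, with 1901, 2317 and 2749 CPM in the Dpp4 Pi16 set (log2 fold change 1.23 ± 0.06 SE, adjusted p = 9.89e-21), and it was lowest in the Gdf10 F3 set in 11 of 12 libraries (log2 fold change -0.91 ± 0.07 SE, adjusted p = 2.05e-14). Mfap2 was instead highest in the Tnc Mdk set in 11 libraries, at 184, 335 and 804 CPM (log2 fold change 0.65 ± 0.09 SE, adjusted p = 1.02e-07). Mfap4 was the most confined of the glycoproteins, with 84.2, 157 and 658 CPM in the Tnc Mdk set (log2 fold change 2.73 ± 0.23 SE, adjusted p = 6.21e-13) and 45.6, 108 and 224 CPM in the Gdf10 F3 set (log2 fold change 1.64 ± 0.24 SE, adjusted p = 3.63e-07). Its levels were 2.24, 8.63 and 52.6 CPM in the Dpp4 Pi16 set and 3.51, 12.3 and 87.9 CPM in the Fabp4 Lpl set, and those 2 sets overlapped. At 5000 UMIs per cell, Mfap4 was detected in 29.0% of Tnc Mdk cells, 14.5% of Gdf10 F3 cells, 3.77% of Dpp4 Pi16 cells, 4.47% of Fabp4 Lpl cells and 0.789% of immune cells. Without thinning these shares were 38.0, 21.9, 9.69, 10.0 and 1.88%. The higher level of Mfap4 in the Gdf10 F3 set turned to a log2 fold change of -1.11 when sets were drawn from only 2 genes each. With those sets it was called lower, so its place in the Gdf10 F3 set depends on the gate.

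Among the fibulins, Fbln5 was highest in the Dpp4 Pi16 set in all 12 libraries, at 239, 286 and 341 CPM, and those values did not overlap with any other set (log2 fold change 1.27 ± 0.06 SE, adjusted p = 2.07e-20). Fbln1 was spread over 3 sets, with 361, 726 and 1075 CPM in the Gdf10 F3 set, 101, 507 and 1029.9 CPM in the Tnc Mdk set and 287, 469 and 814 CPM in the Dpp4 Pi16 set. The Fabp4 Lpl set was lowest for Fbln1 in all 12 libraries, at 41.3, 82.2 and 351 CPM (log2 fold change -2.36 ± 0.27 SE, adjusted p = 1.24e-09). Fbln2 was the most even of the 10 genes, with medians that differed by 1.51-fold from the highest set to the lowest, and neighbouring sets exchanged places in 4 to 6 libraries. Emilin1 was at 25.2, 42.7 and 64.7 CPM in the Dpp4 Pi16 set, the lowest in all 12 libraries, and at 51.6, 138 and 271 CPM in the Tnc Mdk set (log2 fold change 0.99 ± 0.10 SE, adjusted p = 2.36e-10). The remaining calls between sets were Mfap4, Fbn2, Emilin1 and Mfap2 lower and Fbln1 higher in the Dpp4 Pi16 set, at log2 fold changes of -2.53, -2.49, -0.97, -0.54 and 0.73. In the Fabp4 Lpl set Mfap4, Fbn2, Fbln5, Fbn1 and Mfap5 were lower, at -1.84, -1.04, -0.84, -0.74 and -0.46. In the Tnc Mdk set Fbln2, Fbln5 and Fbn1 were lower, at -0.57, -0.41 and -0.34. In the Gdf10 F3 set Fbln1 and Fbln2 were higher and Fbn1 was lower, at 1.29, 0.41 and -0.51. With sets drawn from 2 genes each, the Fbln1 call in the Dpp4 Pi16 set, the Fbn2 call in the Fabp4 Lpl set and the Fbln2 call in the Gdf10 F3 set were lost. The same sets brought Mfap4 and Fbn2 in the Dpp4 Pi16 set to -0.80 and -1.08 and Fbn1 in the Fabp4 Lpl set to -0.33, and moved Fbn1 and Fbln5 in the Tnc Mdk set to -0.95 and -0.62 and Fbln1 in the Gdf10 F3 set to 0.86, all still called.

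Of the 44 other genes of the pathway 39 were tested between sets, and the 4 largest called changes in each direction are given. In the Tnc Mdk set 28 were called (17 higher, 11 lower), against 61.0% of all genes. The higher ones were led by Itga8, an integrin subunit that binds matrix proteins with an RGD motif (log2 fold change 2.91 ± 0.10 SE, adjusted p = 2.43e-24), and the short fibulin Fbln7 (log2 fold change 2.25 ± 0.10 SE, adjusted p = 4.6e-21), with Efemp1, which encodes fibulin-3, and the proteoglycan biglycan, Bgn, at log2 fold changes of 0.84 and 0.81. The lower ones were the ADAMTS-like gene Adamtsl3 (log2 fold change -3.37 ± 0.16 SE, adjusted p = 4.37e-20), and then Ltbp2, Adamtsl4 and Ltbp4 at log2 fold changes of -1.82, -1.53 and -1.06. Ltbp4 is a latent TGF-beta binding protein needed for elastogenesis. In the Dpp4 Pi16 set 35 were called (17 higher, 18 lower), against 72.5% of all genes. The 3 largest changes were downward, and the lower genes were led by Fbln7 (log2 fold change -5.39 ± 0.15 SE, adjusted p = 4.04e-28), Itga8 (log2 fold change -4.68 ± 0.15 SE, adjusted p = 1.55e-26), Bgn (log2 fold change -2.98 ± 0.16 SE, adjusted p = 1.46e-19) and the protease cathepsin K, Ctsk (log2 fold change -1.85 ± 0.09 SE, adjusted p = 1.92e-20). Higher there were Adamtsl4, a fibrillin-binding ADAMTS-like protein (log2 fold change 2.53 ± 0.11 SE, adjusted p = 8.53e-23), and Fn1, fibronectin (log2 fold change 2.12 ± 0.22 SE, adjusted p = 3.13e-11), with Adamtsl3 and Emilin2 at log2 fold changes of 1.90 and 1.86. In the Gdf10 F3 set 27 were called (13 higher, 14 lower), against 50.7% of all genes. Adamtsl3, Ltbp2, Ltbp4 and Bgn were highest, at log2 fold changes of 2.96, 2.03, 1.59 and 1.44, and Efemp1, versican (Vcan), the lysyl oxidase Loxl1 and Ltbp1 lowest, at -1.32, -0.99, -0.82 and -0.67. In the Fabp4 Lpl set 33 were called (16 higher, 17 lower), against 60.4% of all genes. Fbln7, Ctsk, Loxl2 and Itga8 were higher, at log2 fold changes of 1.84, 1.18, 0.79 and 0.74, and Fn1, Adamtsl4, Loxl4 and Adamtsl3 lower, at -2.44, -1.82, -1.73 and -1.49.

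The second comparison asked what E2 changed, with the 6 E2-treated libraries of the layout (E2 and E2 with P4) set against the 3 without hormone, PBDE level as a covariate and 4 residual degrees of freedom. In the Tnc Mdk set 8 of the 10 elastic fibre genes were called, against 33.4% of all genes tested. Eln, Fbn1, Fbn2, Mfap2, Mfap4, Mfap5 and Emilin1 rose (17.1% of all genes did) and Fbln1 fell (16.3% did), while Fbln2 and Fbln5 did not pass. The median log2 fold change of the 10 genes was 0.97, beside -0.02 over all genes tested. These 8 calls held when each library was left out in turn, but with sets drawn from only 2 genes each the Mfap4 call was lost (log2 fold change 0.61, adjusted p = 0.148). The same sets moved Fbn1 to 1.43 and Fbn2 to 1.04, both still called. In the other sets 3 genes (Dpp4 Pi16), 5 genes (Fabp4 Lpl) and 3 genes (Gdf10 F3) were called, against 11.8%, 11.6% and 3.46% of all genes. Their median log2 fold changes over the 10 genes were 0.20, 0.21 and 0.28, beside -0.0036, -0.0085 and -0.0106 over all genes.

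Eln in the Tnc Mdk set was at 120.4, 134 and 259.9 CPM without hormone, 358, 172 and 247 CPM with E2 and 1135, 998 and 710.2 CPM with E2 and P4. The E2 with P4 libraries lay far above all others, whereas the E2 libraries overlapped with the high PBDE library that had received no hormone. Over both E2 groups the change was called (log2 fold change 1.48 ± 0.28 SE, adjusted p = 0.00257), but with the E2 libraries alone it was not (log2 fold change 0.53 ± 0.30 SE, adjusted p = 0.266), and E2 with P4 against no hormone gave a larger value (log2 fold change 2.43 ± 0.32 SE, adjusted p = 0.00026). These last contrasts were added after the data were seen, and they share the same control libraries with the pooled one. With E2 alone 5, 2, 3 and 1 of the 10 genes were called in the Tnc Mdk, Fabp4 Lpl, Dpp4 Pi16 and Gdf10 F3 sets, against 17.1%, 2.07%, 7.25% and 0.667% of all genes. With E2 and P4 the counts were 8, 8, 2 and 2, against 35.5%, 17.6%, 7.53% and 3.19%.

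Of the fibrillins, Fbn1 was at 466, 412 and 563 CPM without hormone, 714, 617 and 647 CPM with E2 and 901, 1071 and 841 CPM with E2 and P4. All 6 treated libraries lay above the 3 untreated ones (log2 fold change 0.65 ± 0.13 SE, adjusted p = 0.00303). With E2 alone Fbn1 was not called (log2 fold change 0.40 ± 0.14 SE, adjusted p = 0.0793). Fbn2 was at 26.5, 23.6 and 31.7 CPM without hormone, 102, 57.4 and 40.0 CPM with E2 and 141, 112 and 86.8 CPM with E2 and P4. Its groups did not overlap either (log2 fold change 1.60 ± 0.21 SE, adjusted p = 0.000308), and with E2 alone it remained called (log2 fold change 1.19 ± 0.23 SE, adjusted p = 0.00641).

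Among the glycoproteins, Emilin1 gave the smallest adjusted p of the 10 genes. It was at 62.0, 51.6 and 59.1 CPM without hormone, 179.9, 178 and 186 CPM with E2 and 271, 237 and 201 CPM with E2 and P4. Every treated library lay far above every untreated one (log2 fold change 1.78 ± 0.11 SE, adjusted p = 5.4e-06), and E2 alone gave much the same value (log2 fold change 1.60 ± 0.12 SE, adjusted p = 4.78e-05). Mfap2 was at 193, 184 and 295, 417, 365 and 696 and 804, 758 and 726 CPM in the same order of hormone groups. All treated libraries were higher (log2 fold change 1.40 ± 0.16 SE, adjusted p = 0.000128), and the high PBDE library with E2 came close to the E2 with P4 libraries. Mfap5 was at 1144, 1094 and 907, 1546, 1349.5 and 1315 and 2272, 2107 and 1633 CPM, again without overlap (log2 fold change 0.61 ± 0.09 SE, adjusted p = 0.000723).

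Mfap4 had the layout of Eln. It was at 144, 117 and 108 CPM without hormone, 169.6, 131 and 265 CPM with E2 and 533, 658 and 398 CPM with E2 and P4. The E2 libraries overlapped with the untreated ones, the E2 with P4 libraries did not, and the pooled change was called (log2 fold change 1.29 ± 0.24 SE, adjusted p = 0.00215) where that of E2 alone was not (log2 fold change 0.55 ± 0.26 SE, adjusted p = 0.178).

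**Figure D2:**
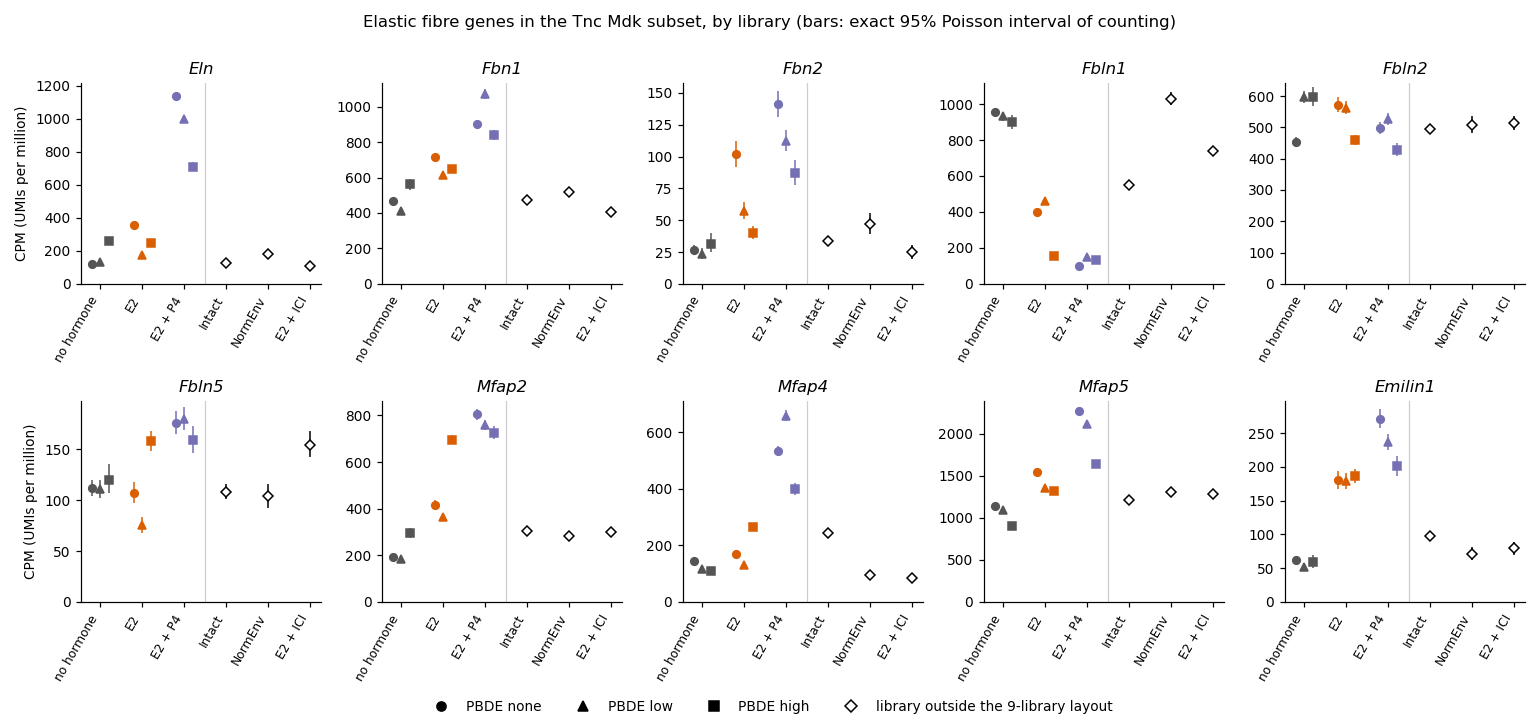
CPM of the 10 genes in the Tnc Mdk set, with 1 symbol per library by hormone on the horizontal axis (circle, triangle and square for no, low and high PBDE, open diamonds for the 3 libraries outside the layout) and bars for the exact 95% Poisson interval of counting. Emilin1 is at 51.6 to 62.0 CPM in the untreated layout libraries and at 178.4 to 271.4 CPM in the treated ones, and Fbln1 falls from 898 to 954 CPM to 101.1 to 462.9 CPM.

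Fbln1 moved the other way. It was at 954, 933 and 898 CPM without hormone, 401, 463 and 155 CPM with E2 and 101, 148 and 133 CPM with E2 and P4. No treated library came near the lowest untreated one (log2 fold change -2.27 ± 0.23 SE, adjusted p = 6.18e-05), and E2 alone also gave a call (log2 fold change -1.60 ± 0.28 SE, adjusted p = 0.00417). Fbln2 was at 452, 597 and 598, 573, 563 and 459.6 and 497, 526 and 428 CPM in the same order, with overlap throughout (log2 fold change -0.18 ± 0.12 SE, adjusted p = 0.255). Fbln5 was at 112, 111 and 120.3, 107, 75.5 and 158 and 176, 180.1 and 159 CPM, where the low PBDE library with E2 was the lowest of all 12 (log2 fold change 0.21 ± 0.17 SE, adjusted p = 0.373).

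In all, 6 of the 10 genes had no overlap between treated and untreated libraries in the Tnc Mdk set, and 27.3% of all genes tested there had none. The counts were 2, 3 and 2 in the Dpp4 Pi16, Fabp4 Lpl and Gdf10 F3 sets, against 13.8%, 12.6% and 9.41%. Several measures of the cells moved with the same contrast. The 6 markers that define the set summed to 2758 to 3197 CPM without hormone, 2234 to 2630 CPM with E2 and 1629 to 2175 CPM with E2 and P4, and the 8 markers of the Fabp4 Lpl set summed there to 2909 to 3168, 3771 to 4175 and 3676 to 4194 CPM. The 8 markers of the Dpp4 Pi16 set, in which Eln, Fbn1, Mfap5 and Fbln5 are highest, summed to 749.9 to 980.1 CPM without hormone and lower in every treated library, at 498.8 to 646.0 CPM with E2 and 465.2 to 731.6 CPM with both. Those of the Gdf10 F3 set, in which Fbln1 is high, summed to 508.4 to 717.8 CPM without hormone. They stood at 385.8 to 560.2 CPM with E2, which overlaps, and at 337.7 to 406.8 CPM with both. UMIs per cell were 10120 to 11350 without hormone and 16640 to 26520 with E2 or both hormones. The 6 fibroblast markers summed to 34780 to 38550 CPM without hormone and 40640 to 52160 CPM in treated libraries. Not all of these markers rose, since Dcn was lower over both E2 groups (log2 fold change -0.84). Col1a1 and Col1a2 reached at most 17490 and 16780 CPM. Among the 6 pericyte markers Cspg4 was at 0 by the selection of cells, Higd1b was at 0 in 11 of 12 libraries and Rgs5 reached at most 0.781 CPM. Their summed level was 45.4 to 50.2 CPM without hormone and 10.2 to 22.2 CPM in treated libraries. That of the 6 Schwann cell markers was 15.8 to 21.3 and 9.34 to 14.4 CPM, with Gpr37l1 at 0 and Sox10 at 0 in 11 of 12 libraries, and the immune list was at 4.61 to 5.39 and 3.12 to 9.06 CPM with Ptprc and Cd52 at 0. The part of these shifts in the changes of the elastic fibre genes was not tested.

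In the Fabp4 Lpl set 4 genes rose and 1 fell, where 6.64% of all genes rose and 4.94% fell. The set's own 8 markers summed to 9147 to 10360 CPM without hormone, 13050 to 14350 CPM with E2 and 10230 to 13590 CPM with both, apart in the E2 libraries. UMIs per cell were 14370 to 16540, 17170 to 17820 and 14630 to 23550 in the same order. The 6 endothelial markers summed to 0.359 to 1.26 CPM without hormone and 1.261 to 2.79 CPM in treated libraries. For the 6 adipocyte markers these sums were 0 to 0.158 and 0.378 to 1.18 CPM. The part of these shifts in the changes was not tested. Emilin1 was at 43.9, 43.9 and 41.8 CPM without hormone, 91.6, 99.8 and 82.1 CPM with E2 and 149, 127 and 150.4 CPM with E2 and P4, without overlap (log2 fold change 1.35 ± 0.10 SE, adjusted p = 0.00012). Fbln1 was at 351, 248 and 177, 55.7, 70.2 and 41.3 and 46.5, 74.2 and 63.1 CPM in the same order. All treated libraries were lower (log2 fold change -2.18 ± 0.18 SE, adjusted p = 0.000255), with E2 alone giving the same size (log2 fold change -2.25 ± 0.23 SE, adjusted p = 0.00272). Mfap4 was at 13.5, 7.03 and 8.03, 11.1, 17.5 and 24.2 and 87.9, 43.8 and 81.1 CPM (log2 fold change 1.81 ± 0.28 SE, adjusted p = 0.00416), and its E2 libraries overlapped with the untreated ones. Mfap2 (log2 fold change 0.77 ± 0.12 SE, adjusted p = 0.00488) and Fbn2 (log2 fold change 2.15 ± 0.37 SE, adjusted p = 0.00648) were also higher over both E2 groups. Fbn2 was at 2.05, 1.28 and 0.599 CPM without hormone, 2.16, 3.15 and 4.47 CPM with E2 and 16.3, 7.99 and 16.9 CPM with E2 and P4. With E2 alone, Fbn2 (log2 fold change 1.13 ± 0.45 SE, adjusted p = 0.238), Mfap2 (log2 fold change 0.40 ± 0.14 SE, adjusted p = 0.176) and Mfap4 (log2 fold change 0.83 ± 0.32 SE, adjusted p = 0.23) were not called. Eln was at 220.4, 162 and 209, 114, 162 and 85.3 and 423, 145 and 184 CPM and did not pass (log2 fold change -0.26 ± 0.27 SE, adjusted p = 0.562). Fbn1, Fbln2, Fbln5 and Mfap5 did not pass either, at log2 fold changes of 0.18, -0.30, -0.14 and 0.23 (adjusted p = 0.0614 for Fbln2 and above for the others).

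In the Dpp4 Pi16 set the 3 calls were Emilin1, Mfap2 and Mfap4, all higher, where 6.13% of all genes were. The 8 markers of the Gdf10 F3 set, in which Mfap4 is high except with sets drawn from 2 genes, also moved. They summed here to 120.5 to 199.0 CPM without hormone, 229.4 to 302.0 CPM with E2 and 306.2 to 394.0 CPM with both, without overlap. Their part in these changes was not tested. Emilin1 was at 41.1, 25.2 and 25.5 CPM without hormone, 64.7, 54.1 and 45.6 CPM with E2 and 49.1, 52.9 and 44.1 CPM with both (log2 fold change 0.76 ± 0.11 SE, adjusted p = 0.00725). Mfap2 gave log2 fold change 0.46 ± 0.10 SE, adjusted p = 0.0295, and its treated libraries overlapped with the untreated ones. Mfap4 was at 2.54, 2.24 and 5.23 CPM without hormone, 52.6, 34.8 and 9.23 CPM with E2 and 42.4, 16.7 and 8.04 CPM with both. The treated libraries were all higher (log2 fold change 2.71 ± 0.57 SE, adjusted p = 0.024), from low untreated levels. Immune cells held 0.359 to 0.924 CPM of Mfap4 without hormone, 1.15 to 1.55 CPM with E2 and 0.665 to 5.18 CPM with both, below the Dpp4 Pi16 levels of the same hormone group. Without VCD_E2 or without VCD_Low_PBDE only Emilin1 was called. The Mfap2 and Mfap4 calls also ended without VCD_Vehicle, the Mfap2 call without VCD_High_PBDE or VCD_High_PBDE_E2_P4, and the Mfap4 call without VCD_Low_E2 or VCD_Low_E2_P4. With sets drawn from 2 genes each the Mfap4 call was lost as well, at 1.69. With a library left out the Mfap4 value ran from 2.07 without VCD_Vehicle to 3.74 without VCD_High_PBDE.

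Eln in the Dpp4 Pi16 set, where it was highest, did not pass (log2 fold change -0.67 ± 0.37 SE, adjusted p = 0.257), with 579.6, 492 and 868 CPM without hormone, 632, 938 and 246 CPM with E2 and 385, 355 and 246 CPM with both. The E2 libraries spanned the widest range, since the low PBDE one was the highest of all 12 and the high PBDE one the lowest. Fbln2 there was at 409, 479 and 499, 1231, 1309 and 493 and 800.2, 759 and 576 CPM and narrowly missed the threshold (log2 fold change 0.78 ± 0.24 SE, adjusted p = 0.0739). The 2 E2 libraries with no or low PBDE were high and the high PBDE one lay within the untreated range. Fbn1, Mfap5, Fbln5, Fbln1 and Fbn2 were not called there, at log2 fold changes of -0.16, -0.10, 0.15, 0.25 and -0.35.

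**Figure D3:**
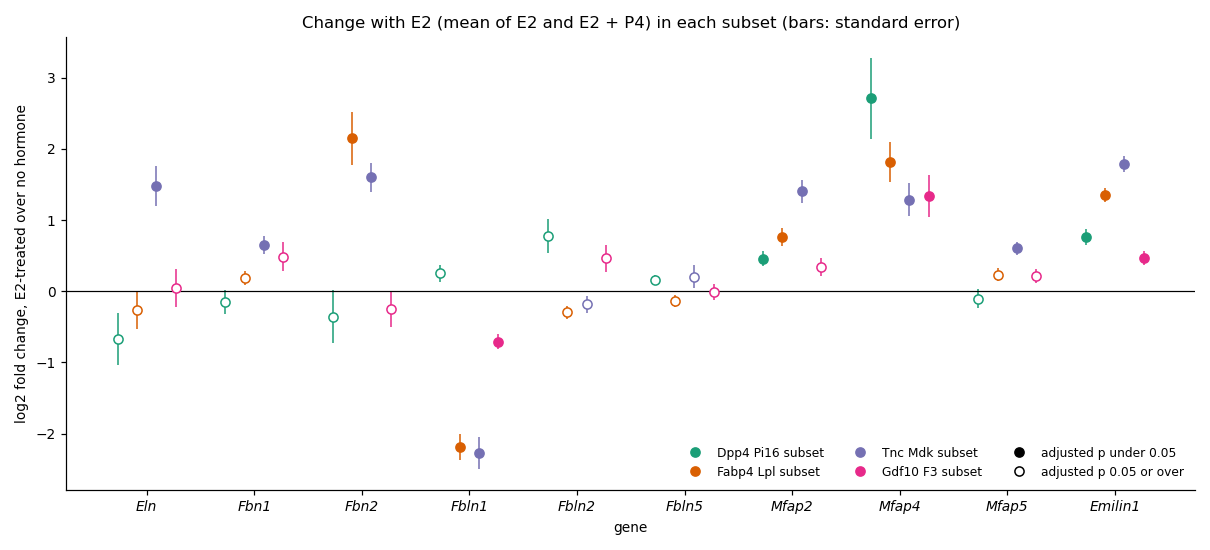
Log2 fold change of E2-treated over untreated layout libraries (vertical axis) for each gene (horizontal axis) in 4 fibroblast sets, with standard errors as bars and filled points where the adjusted p was under 0.05. Emilin1 is above 0 in every set, from 0.46 to 1.78, and Fbln1 lies at -2.27, -2.18 and -0.71 in the Tnc Mdk, Fabp4 Lpl and Gdf10 F3 sets and at 0.25 in the Dpp4 Pi16 set.

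In the Gdf10 F3 set Emilin1 (log2 fold change 0.46 ± 0.10 SE, adjusted p = 0.0358) and Mfap4 (log2 fold change 1.34 ± 0.30 SE, adjusted p = 0.0401) were higher and Fbln1 was lower (log2 fold change -0.71 ± 0.10 SE, adjusted p = 0.00696). Fbln1 was at 907, 838 and 1075 CPM without hormone, 527, 361 and 599 CPM with E2 and 574, 591 and 727 CPM with both. The treated libraries all lay below the untreated ones. Mfap4 was at 48.1, 45.6 and 91.6, 134, 170.1 and 123 and 224, 138 and 93.3 CPM, also without overlap. Not called there were Fbn1, Fbn2, Mfap2, Mfap5, Eln, Fbln2 and Fbln5, at log2 fold changes of 0.48, -0.25, 0.34, 0.22, 0.05, 0.46 and -0.01. The 3 calls were lost without some libraries, while the values kept their sign. Over the alternatives they ran from -0.76 to -0.63 (Fbln1), from 0.409 to 0.565 (Emilin1) and from 1.02 to 2.17 (Mfap4). Without VCD_Low_PBDE none of the 3 was called, without VCD_Vehicle, VCD_E2 or VCD_Low_E2 only Fbln1 was, and without VCD_High_PBDE_E2 there were 5 calls. The Emilin1 call also ended without VCD_E2_P4, VCD_High_PBDE or VCD_High_PBDE_E2_P4, and the Mfap4 call without VCD_Low_E2_P4. DESeq2 called only Fbln1, and its share of all genes is not given. The Emilin1 call was also lost at a mitochondrial limit of 10%, and the Mfap4 call with a gate margin of 0.5, without negative selection or without the top 5% of cells by UMIs. Sets drawn from 2 genes each gave 2.17 for Mfap4, still called. Emilin1 and Mfap4 were the 2 genes of the 10 called higher in all 4 sets over both E2 groups. With E2 alone, Mfap4 was called only in the Dpp4 Pi16 set, and Emilin1 in every set but the Gdf10 F3 set. Emilin1 in the Gdf10 F3 set also overlapped, at 43.6 to 59.5 CPM without hormone and 46.9 to 81.9 CPM in treated libraries.

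Whether the change in the Tnc Mdk set differed from that in the other sets was tested directly, as the E2 change there minus the mean E2 change of the other 3 sets, in a fit of 36 sums with library as a block. The E2 change here is the average of E2 and of E2 with P4, and the difference was not tested with E2 alone. It differed for 8 of the 10 genes, against 28.2% of all 12902 genes tested. Eln had the largest difference (log2 fold change 1.83 ± 0.29 SE, adjusted p = 0.000111), followed in size by Fbln1 in the negative direction (log2 fold change -1.43 ± 0.21 SE, adjusted p = 4.85e-05) and Fbn2 (log2 fold change 1.11 ± 0.34 SE, adjusted p = 0.0206). For Fbln1 and Fbn2 the Fabp4 Lpl set changed about as much or more, at -2.18 and 2.15 beside -2.27 and 1.60 in the Tnc Mdk set. In the Dpp4 Pi16 set these 2 genes changed by 0.25 and -0.355. A difference from the Fabp4 Lpl set alone was not tested. Emilin1 (log2 fold change 0.92 ± 0.12 SE, adjusted p = 1.7e-05), Mfap2 (log2 fold change 0.86 ± 0.12 SE, adjusted p = 2.24e-05), Fbn1 (log2 fold change 0.48 ± 0.16 SE, adjusted p = 0.0273) and Mfap5 (log2 fold change 0.47 ± 0.10 SE, adjusted p = 0.00141) also rose more in the Tnc Mdk set. Fbln2 gave a negative difference (log2 fold change -0.50 ± 0.15 SE, adjusted p = 0.0167) although it was not called in any single set. Mfap4 (log2 fold change -0.71 ± 0.41 SE, adjusted p = 0.214) and Fbln5 (log2 fold change 0.19 ± 0.13 SE, adjusted p = 0.288) were not called. The difference of Fbn2 became -0.24 with sets drawn from 2 genes each. Without VCD_Vehicle or without VCD_Low_PBDE 5 genes were called, and the calls of Fbn1, Fbln2 and Fbn2 were lost. The Fbn1 and Fbn2 calls also ended without VCD_E2 or VCD_Low_E2_P4, the Fbn1 call without VCD_High_PBDE and the Fbln2 call without VCD_E2_P4. Fbn2 was not called either at a mitochondrial limit of 10% or without negative selection, nor Fbln2 with the sets from 2 genes, which moved Fbn1 to 1.28.

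**Figure D4:**
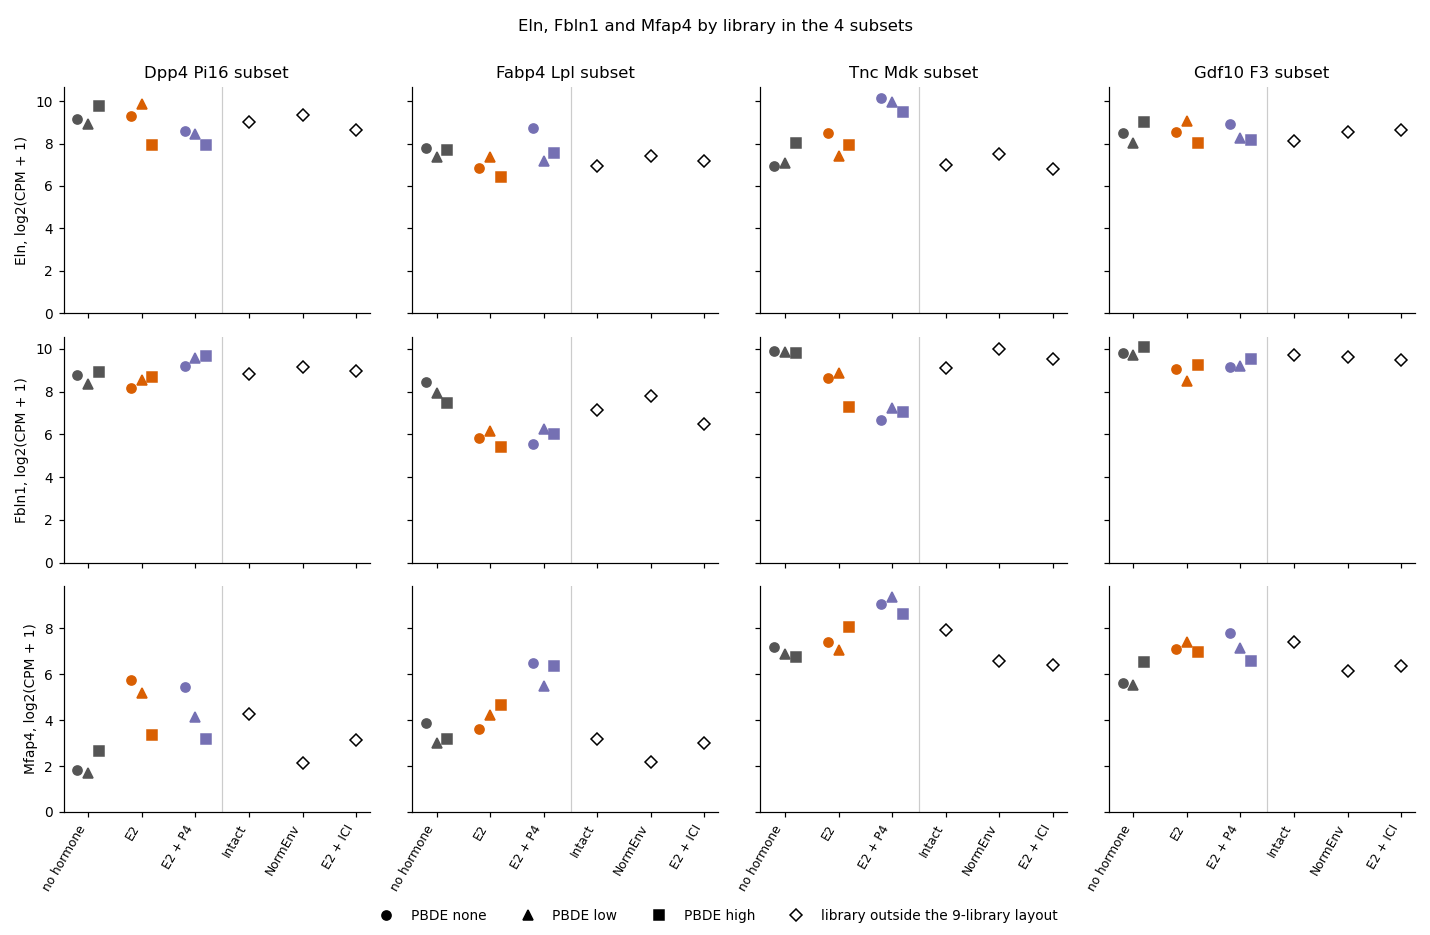
Eln, Fbln1 and Mfap4 (rows) as log2(CPM + 1) on the vertical axis in each library of the 4 fibroblast sets (columns), by hormone on the horizontal axis, with symbols for PBDE level and open diamonds for libraries outside the layout. Eln rises to 710 to 1135 CPM with E2 and P4 in the Tnc Mdk set, and in the Dpp4 Pi16 set the same treatment gives 246.1 to 385 CPM.

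Adding P4 to E2 was compared over 3 libraries each, with 11 of 40 tests called. In the Tnc Mdk set 4 genes were called, against 1.89% of all genes. Eln was higher in all 3 E2 with P4 libraries than in any E2 library (log2 fold change 1.91 ± 0.30 SE, adjusted p = 0.0156), as were Mfap4 (log2 fold change 1.48 ± 0.26 SE, adjusted p = 0.0209) and Mfap5 (log2 fold change 0.49 ± 0.10 SE, adjusted p = 0.0429). Fbln1 was lower (log2 fold change -1.35 ± 0.29 SE, adjusted p = 0.043). The set's own 6 markers also stood lower with both hormones than with E2 (1629 to 2175 against 2234 to 2630 CPM), and their part in these changes was not tested. The groups did not overlap for 8 of the 10 genes, against 19.4% of all genes, and for 6, 1 and 1 in the Fabp4 Lpl, Dpp4 Pi16 and Gdf10 F3 sets, against 22.0%, 17.9% and 12.4%. In the Tnc Mdk set Fbn1, Mfap2, Emilin1 and Fbln5 were also higher in each E2 with P4 library but were not called by edgeR, nor was Fbn2, at log2 fold changes of 0.50, 0.68, 0.36, 0.62 and, for Fbn2, 0.82. DESeq2 called 6 genes there, the same 4 with Mfap2 and Fbn2. The share of all genes with DESeq2 is not given, and the 1.89% is that of edgeR. Fbln2 gave a log2 fold change of -0.15 and was not called. Over 17 alternatives the Eln call was lost in 3, each without 1 library (VCD_E2_P4, VCD_Low_E2 or VCD_Low_E2_P4), and the Mfap4 call in the same 3 and without VCD_E2. The Eln value ran from 1.65 to 3.17, the highest with sets from 2 genes. The Mfap5 call was lost in 10, which were a gate margin of 0.5, sets from 2 genes, leaving out the top 5% of cells by UMIs and 7 left-out libraries. The Fbln1 call was lost in 8, which were no negative selection, leaving out the top 5% of cells and 6 left-out libraries. In the Fabp4 Lpl set 6 genes were called, all higher, against 2.29% of all genes in either direction and 1.59% higher. Mfap5 was at 749.7, 812 and 821 CPM with E2 and 1609, 1335 and 1306 CPM with both (log2 fold change 0.82 ± 0.10 SE, adjusted p = 0.00745). Mfap4 (log2 fold change 1.96 ± 0.30 SE, adjusted p = 0.0157), Emilin1 (log2 fold change 0.62 ± 0.10 SE, adjusted p = 0.0225), Fbn2 (log2 fold change 2.03 ± 0.35 SE, adjusted p = 0.0252), Mfap2 (log2 fold change 0.73 ± 0.14 SE, adjusted p = 0.0366) and Fbn1 (log2 fold change 0.56 ± 0.11 SE, adjusted p = 0.0427) followed. With sets drawn from 2 genes each, none of these 6 was called, and Mfap4 and Fbn2 moved to 1.23 and 1.06. Over the 17 alternatives their calls were lost in 3 (Mfap5), 4 (Mfap4), 5 (Emilin1), 7 (Fbn2), 8 (Mfap2) and 11 (Fbn1). Eln, Fbln2, Fbln5 and Fbln1 were not called, at log2 fold changes of 0.94, -0.12, 0.29 and 0.13.

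Fbln1 was the only call for P4 in the Dpp4 Pi16 set, where 0.0862% of all genes were called, and there it was higher. It was at 287, 373 and 408 CPM with E2 and 582, 775 and 814 CPM with both (log2 fold change 1.11 ± 0.14 SE, adjusted p = 0.0496), where in the Tnc Mdk set it was lower, and a difference between these 2 sets was not tested. The markers of the Gdf10 F3 set, where Fbln1 is high, also stood higher here with both hormones than with E2 (306.2 to 394.0 against 229.4 to 302.0 CPM), and their part in this change was not tested. The call in the Dpp4 Pi16 set was lost in 11 of 17 alternatives, namely RLE scaling, a gate margin of 0.5, a mitochondrial limit of 10%, leaving out the top 5% of cells by UMIs, and 7 of the left-out libraries, while its value stayed between 1.01 and 1.21. The other 9 genes there had log2 fold changes from -0.72 (Eln) to 0.12 (Mfap5). In the Gdf10 F3 set edgeR and DESeq2 called 0 of the 10 genes, and edgeR called 0.0877% of all genes. With edgeR 3 of the 10 had an unadjusted p under 0.05, and the share of all genes is not given for that count. The log2 fold changes ran from -0.19 (Fbln2) to 1.25 (Fbn2). The number of P4 calls changed with the libraries kept. Without VCD_E2_P4 no test was called, and without VCD_E2, VCD_Low_E2, VCD_Low_E2_P4 or VCD_High_PBDE_E2_P4 there were 2, 4, 4 and 6.

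PBDE gave no call among 80 tests of the 10 genes with edgeR. Of the 80, 10 had an unadjusted p under 0.05, and the share of all genes is not given for that count. DESeq2 called 2, Fbln5 in the Fabp4 Lpl set and Emilin1 in the Gdf10 F3 set, both at high PBDE. Without VCD_High_PBDE, edgeR called 1. The log2 fold changes of the 10 genes over the 4 sets ran from -0.88 (Mfap4, Dpp4 Pi16 set) to 0.23 (Fbln1, Tnc Mdk set) at low PBDE and from -1.67 (Mfap4, Dpp4 Pi16 set) to 0.45 (Fbln5, Fabp4 Lpl set) at high PBDE. Over all genes, edgeR called 0% at low PBDE in the Dpp4 Pi16, Tnc Mdk and Gdf10 F3 sets and 0.00835% in the Fabp4 Lpl set. At high PBDE the shares with edgeR were 0.110%, 0.276%, 0.0431% and 0.211% in the Dpp4 Pi16, Fabp4 Lpl, Tnc Mdk and Gdf10 F3 sets. The shares with DESeq2 are not given, so its 2 calls cannot be set against these. For high PBDE, Fbln5 gave log2 fold change 0.45 ± 0.10 SE, adjusted p = 0.0917 in the Fabp4 Lpl set and Emilin1 gave log2 fold change -0.59 ± 0.12 SE, adjusted p = 0.0832 in the Gdf10 F3 set. The high PBDE library with E2 was low for several genes, with Eln in the Dpp4 Pi16 set at 246 CPM beside 632 and 938 CPM in the other E2 libraries. Fbn1 in the Gdf10 F3 set was at 306 CPM beside 601 and 799 CPM. For Eln in the Dpp4 Pi16 set, the high PBDE library with both hormones was also at 246 CPM and the one without hormone at 868 CPM. The fit took the PBDE change as the same in every hormone group, so a PBDE change that depends on hormone was not tested.

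Libraries outside the layout had no replicate and no test, and their intervals cover counting error only. Of 480 recomputed log2 ratios (80 ratios of VCD_E2_ICI over VCD_E2 or Intact over VCD_Vehicle), 92 moved beyond counting error under other gates or filters and 22 changed sign. In VCD_E2_ICI, Emilin1 in the Tnc Mdk set was at 79.2 (70.2 to 89.0) CPM, beside 179.9 (167 to 194) CPM in VCD_E2, and lay between the untreated and the treated libraries of the layout. Eln was at 109 (98.4 to 120.3) CPM there and at 358 (339 to 377) CPM in VCD_E2, and Fbn2 was at 24.7 (19.8 to 30.4) CPM beside 102 (91.8 to 112) CPM. Fbln1 was at 736 (709 to 765) CPM beside 401 (381 to 421) CPM, again between the ranges. Of its 10 values in the Tnc Mdk set, 2 lay in the range of the untreated libraries, 2 in that of the treated ones and 7 in neither, the first 2 counts sharing 1 gene. Over all 40 values the counts were 10, 19 and 15, with 4 values in both ranges. Fbln5 in the Fabp4 Lpl set was highest in this library, at 189 (179 to 199.6) CPM.

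In the Intact library, 17 of 40 values lay in the untreated range, 25 in the treated range, 11 in both and 9 in neither. Mfap4 had the 2 largest differences from the VCD vehicle library, with 18.2 (16.0 to 20.7) CPM against 2.54 (1.75 to 3.57) CPM in the Dpp4 Pi16 set and 169 (157 to 181) CPM against 48.1 (41.7 to 55.2) CPM in the Gdf10 F3 set. In the Tnc Mdk set Mfap4 was also higher, at 242 (231 to 253) CPM against 144 (135 to 153) CPM, but in the Fabp4 Lpl set it was lower, at 8.01 (6.25 to 10.1) CPM against 13.5 (11.6 to 15.7) CPM, a difference that turned to higher with sets from 2 genes. Fbln1 in the Fabp4 Lpl set was lower as well, at 139.7 (132 to 148) CPM against 351 (340.4 to 361) CPM. The VCD_Vehicle_NormEnv library had 21 of 40 values in the untreated range, 21 in the treated range, 10 in both and 8 in neither. Its Fbln1 level in the Tnc Mdk set, 1029.9 (993 to 1068) CPM, was the highest of all 12 libraries.

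Of the other genes of the pathway, 23 of the 38 tested in the Tnc Mdk set were called over both E2 groups (15 higher, 8 lower), against 33.4% of all genes. The median of their log2 fold changes was 0.14. With E2 alone 17 of 38 were called, against 17.1% of all genes. Crosslinking enzymes moved both ways, with the lysyl oxidases Loxl1 (log2 fold change 1.46 ± 0.11 SE, adjusted p = 1.11e-05) and Loxl2 higher and Lox and Loxl4 (log2 fold change -1.74 ± 0.46 SE, adjusted p = 0.0146) lower among 6 tested. Assembly proteins gave 4 higher and 3 lower of 13, from the metalloprotease Adamts17 (log2 fold change 4.27 ± 0.60 SE, adjusted p = 0.000458) to Adamtsl4 (log2 fold change -1.48 ± 0.22 SE, adjusted p = 0.000644) and Ltbp4 (log2 fold change -0.70 ± 0.13 SE, adjusted p = 0.00258). Adamts17 had 0, 5 and 0 UMIs in the untreated libraries and 12 to 76 in the treated ones, so its fold is poorly determined. Matrix partners gave Fn1 (log2 fold change 2.06 ± 0.20 SE, adjusted p = 4.69e-05) and Vcan (log2 fold change 1.77 ± 0.11 SE, adjusted p = 4.12e-06) higher, and decorin, Dcn (log2 fold change -0.84 ± 0.09 SE, adjusted p = 6.44e-05), lower with Tnxb. Integrin subunits were higher in 3 of 6 and lower in none, secretion and chaperone genes higher in 2 of 4, and proteases higher in 2 and lower in 1 of 4.

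**Figure D5:**
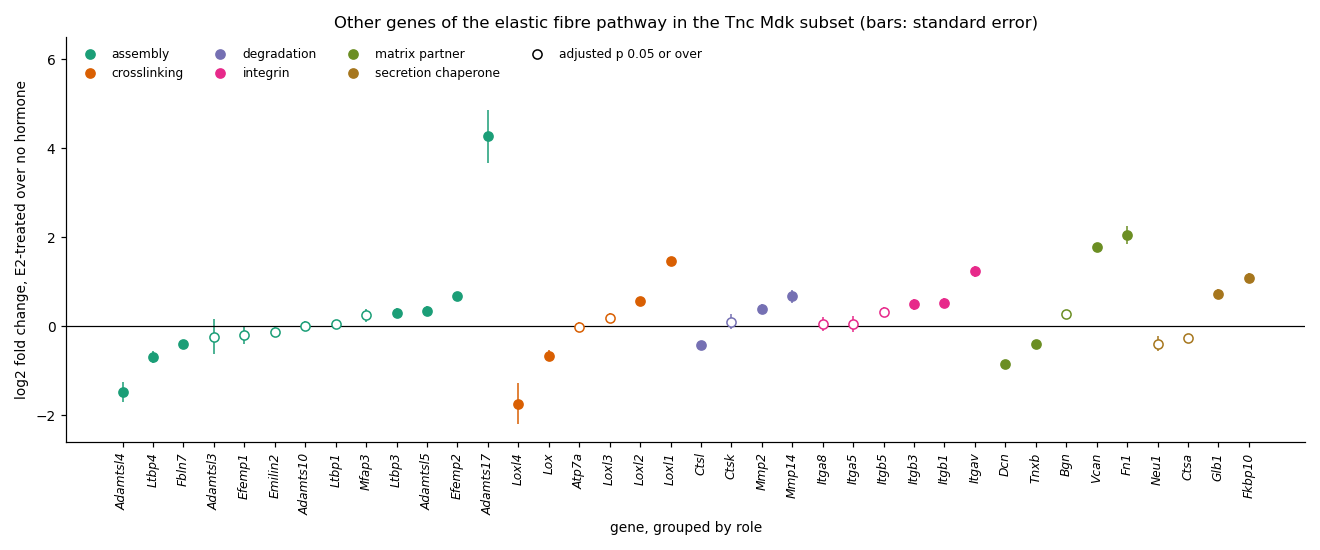
Log2 fold change over both E2 groups in the Tnc Mdk set (vertical axis, standard errors as bars) of 38 other pathway genes grouped by role (horizontal axis), filled where the adjusted p was under 0.05. Fn1, Vcan and Loxl1 stand at 2.06, 1.77 and 1.46, and Loxl4 and Adamtsl4 at -1.74 and -1.48.

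In the Fabp4 Lpl set 14 of 39 were called (8 higher, 6 lower), against 11.6% of all genes, with Fn1 (log2 fold change 2.56 ± 0.25 SE, adjusted p = 0.000565) and Vcan (log2 fold change 1.08 ± 0.11 SE, adjusted p = 0.000746) again higher and Adamtsl4 lower (log2 fold change -0.66 ± 0.13 SE, adjusted p = 0.0126). Itgav, the integrin alpha-v subunit, and Loxl1 were also higher, at log2 fold changes of 0.59 and 0.54, and Ctsk, Dcn and the neuraminidase gene Neu1 lower, at -0.52, -0.35 and -0.35. In the Dpp4 Pi16 set 12 of 40 were called (8 higher, 4 lower), against 11.8% of all genes, with Bgn (log2 fold change 1.15 ± 0.29 SE, adjusted p = 0.0406) and cathepsin S, Ctss (log2 fold change 1.14 ± 0.25 SE, adjusted p = 0.0282), higher, and Adamtsl4 (log2 fold change -0.90 ± 0.16 SE, adjusted p = 0.0158) and Fn1 (log2 fold change -0.36 ± 0.07 SE, adjusted p = 0.0211) lower. Ctsk and the lysyl oxidase Loxl3 were higher by less, at 0.40 and 0.36 on the log2 scale, and Adamtsl5 and Tnxb lower, at -0.41 and -0.28. In the Gdf10 F3 set only Vcan (log2 fold change 0.98 ± 0.21 SE, adjusted p = 0.0334), Fn1 (log2 fold change 0.45 ± 0.10 SE, adjusted p = 0.0443) and the beta-galactosidase gene Glb1 (log2 fold change 0.44 ± 0.11 SE, adjusted p = 0.0499), whose splice form is a chaperone of tropoelastin, were called among 38, against 3.46% of all genes. The counts in these sets also pool both E2 groups. With E2 alone 4 of 39, 6 of 40 and 0 of 38 were called in the Fabp4 Lpl, Dpp4 Pi16 and Gdf10 F3 sets. The shares of all genes were 2.07%, 7.25% and 0.667%. The difference of the E2 change between the Tnc Mdk set and the mean of the others was called for 21 of 42 pathway genes (12 higher, 9 lower), against 28.2% of all genes. P4 gave 2 of 38 calls in the Tnc Mdk set and 3 of 39 in the Fabp4 Lpl set, against 1.89% and 2.29% of all genes.

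As a description of shared pattern, Pearson correlations of log2(CPM + 1) were taken over the 48 sums of 4 sets in 12 libraries, which share libraries and depth. Over the 48 sums Fbn1 and Mfap5 correlated at 0.873 and Mfap2 and Emilin1 at 0.882, while Eln and Emilin1 were at 0.030. Over the 12 libraries of the Tnc Mdk set alone, Eln correlated at 0.953 with Fbn1 and at -0.843 with Fbln1, in points that fall into hormone groups. Outside the 10 genes, among 5476 genes whose mean reached 20 CPM, Eln was most like Tubb2b (0.778), Zdhhc8 (0.762) and Pmepa1 (0.750). Mfap4 was most like Fmo1 (0.887), Matn2 (0.855) and Fat1 (0.852), and Mfap5 was most like Ext1 (0.938), Lsp1 (0.934) and Trio (0.918).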

How the data were processed

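Single-cell RNA libraries of mouse mammary gland (10x Genomics, 3' version 3 chemistry) were processed by the authors with Cell Ranger 3.1.0 on mm10, and the deposited values were whole UMI counts per gene and barcode in 12 matrices, 1 per group. The study loaded digested tissue after lymph nodes, red blood cells and dead cells had been removed. Reads were not handled here, no file held columns of other samples, and free RNA was not subtracted.

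Barcodes were kept at 500 genes, 1000 UMIs and at most 5% mitochondrial UMIs. A cell class needed at least 3 of its 6 markers and 2 more than the next class, and as in the study's selection, a fibroblast with a count for Cspg4, Pecam1, Cd52, Ptprc, Krt14 or Epcam was dropped. A fibroblast joined the set whose markers had the highest mean z score, if above 0 and at least 0.25 above the next. Doublets were not called, and the top 5% of cells by UMIs were left out as an alternative.

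Counts were summed per set and library and tested with edgeR 4.0.16 in R 4.3.3 (quasi-likelihood, TMM, low-count filter, Benjamini-Hochberg over all genes tested, threshold 0.05), with 33, 4 and 12 residual degrees of freedom for the sets, the hormones and the difference between sets. Standard errors (SE) were derived from that test, as the absolute log2 fold change divided by the square root of its F statistic. Rank tests and single-library p-values were not used, since each group is 1 library. On simulated counts with 200 genes changed by 1 on the log2 scale, the E2 contrast in the Tnc Mdk set recovered 93% with 9 false calls among 11607 genes, the P4 contrast there 87.5%, and the high PBDE contrast 79% in the Gdf10 F3 set. The changed genes were drawn above a minimum mean count, dispersions followed the trend over genes, and all other genes were unchanged. These rates are therefore not the sensitivity of the real tests. Intervals are exact 95% Poisson intervals and cover counting error only.

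All 10 genes entered each comparison, and for those not called the text gives levels, log2 fold changes or, for P4 in 2 sets and for PBDE, a range. Other pathway genes are named by the 4 largest called changes per direction, and likeness is given for Eln, Mfap4 and Mfap5. Loxl2, Lox and Tnxb were named after their values were seen, to complete counts. The genes, lists and tests were chosen with earlier results of these data known, and Eln and Mfap4 are among genes the study itself discussed from data that included some of these libraries, so their directions are not independent evidence. Alternatives were RLE scaling, DESeq2 1.42.0, no low-count filter, a gate margin of 0.5, a gate of 2 genes per set, a mitochondrial limit of 10%, no negative selection, and each library left out. A pseudocount of 1 CPM was used on log scales.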

Additional observations from a re-analysis of the deposited data

Results flagged for a closer look

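In the Gdf10 F3 set, the level of Fbn1 in the library VCD_High_PBDE_E2 stood apart below the other 5 E2-treated libraries of the layout, with a gap that was 0.648 of the group's range on the log2(CPM + 1) scale, past Dixon's critical value for 6 samples. It was the 1 such value among 40 groups of 6 that were examined on that scale, and chance gives about 1 in 20 for like samples. The 6 libraries differ in P4 and in PBDE level, with 1 library per treatment, so the critical value is only a guide. On the CPM scale the gap was 0.536 of the range, which does not pass, and there Eln in VCD_E2_P4 in the Fabp4 Lpl set passed instead, as the highest library (0.707).

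The change over both E2 groups (E2 and E2 with P4) in the Tnc Mdk set differed from the mean change of the other 3 sets for 8 genes. This is by edgeR's test of the difference itself, which was not run with E2 alone. The same test called 28.2% of all 12902 genes. With each library left out in turn, 5 to 8 of the elastic fibre genes were called. The log2 differences were 1.83 for Eln, 0.48 for Fbn1, 1.11 for Fbn2, 0.86 for Mfap2, 0.47 for Mfap5, 0.92 for Emilin1, -0.50 for Fbln2 and -1.43 for Fbln1. For Fbln1 and Fbn2 the Fabp4 Lpl set changed about as much or more, at -2.18 and 2.15 beside -2.27 and 1.60 in the Tnc Mdk set. With sets drawn from 2 genes each, the difference of Fbn2 turned to -0.24, and neither Fbn2 nor Fbln2 was called.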

How the results depend on the processing

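Each group was 1 library, so the error is the spread over libraries that differ in PBDE level, and a call holds only as far as PBDE and hormone effects add. No paired analysis was possible because each group holds 1 library, so replicate numbers pair no libraries across groups (library was a block only where sets of cells were compared within libraries). The number of genes called for E2 became 2 (E2 alone) and 8 (E2 with P4) in the Fabp4 Lpl set, 5 (E2 alone) in the Tnc Mdk set, and 1 (DESeq2), 5 (no low-count filter) and 1 (E2 alone) in the Gdf10 F3 set. P4 calls became 5 with a gate margin of 0.5, 6 with a gate of 2 genes, 7 without negative selection, 6 without the top 5% of cells and 17 without the low-count filter, and PBDE calls became 2 with DESeq2 and 3 without that filter. Leaving out 1 library at a time gave 9 to 9, 7 to 8, 7 to 8 and 5 to 5 genes for the Dpp4 Pi16, Fabp4 Lpl, Tnc Mdk and Gdf10 F3 sets against the others, 1 to 4, 5 to 6, 8 to 8 and 0 to 5 for E2 in the same sets, 0 to 11 for P4, 0 to 1 for PBDE and 5 to 8 for the difference between sets. With the gate of 2 genes, which left 627 Tnc Mdk cells, some log2 fold changes changed sign. Fbln2 in the Dpp4 Pi16 set turned to 0.41 (uncalled at -0.03 as reported). Mfap4 in the Gdf10 F3 set turned to -1.11 and was called lower. The difference of Fbn2 turned to -0.24. The cause was not tested. Of the 66 called member tests, 487 of 528 recomputed values kept their call with the other alternatives, and 594 of 678 with a library left out.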

Other observations

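Fbln5 was also read in the few endothelial cells of the libraries. In 91 endothelial cells it was at 331.6 CPM (exact 95% Poisson interval 300.5 to 365.0), against 189.8 CPM over all fibroblasts and 3.79 CPM in 6066 immune cells. Mfap5 was at 325.9 CPM (259.6 to 404.1) in 47 Schwann-like cells, against 1632 CPM in fibroblasts. These cells were summed over libraries, so no test was made, and free RNA or doublets with fibroblasts were not tested as their source.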
